A study of Macaca mulatta with 6 samples.

Results

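Lipoproteins are particles of lipid and protein that carry cholesterol and triglyceride between cells, and the proteins on their surface decide which receptors and enzymes a particle meets. The data here are the levels of 6 genes of this system in rhesus macaque luteal cells: the apolipoproteins APOE, APOC4 and APOD, the lipase LPL, and the lipid transfer proteins PLTP and CETP. They were chosen by gene symbol, as every probe set that the platform annotation gives to those symbols, 11 probe sets of 52766 tested, for 6 of 14132 named genes. APOE has 3 probe sets, LPL has 4, and APOC4, APOD, PLTP and CETP have 1 each. Probe sets annotated to 1 gene are not taken as independent of each other, and which transcripts each of them reads was not tested.

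The cultures held dispersed cells of the corpus luteum, the ovarian gland that makes progesterone, 12 days after the surge of luteinizing hormone. The T0901317 group (3 arrays) received 1 µM T0901317, a small molecule that activates the liver X receptors (LXRs), and the DMSO group (3 arrays) received 0.1% dimethyl sulfoxide, the vehicle; the labels do not say whether the T0901317 cultures also held DMSO. Treatment lasted 24 h from plating in both groups. All cultures grew on fibronectin in a serum-free medium with insulin, transferrin, selenium, bovine albumin and the protease inhibitor aprotinin. No lipoprotein is among these components. The design text calls the 3 replicates paired and biological, and the series title gives the aim as finding LXR target genes. Age, genotype and whether a pair shares an animal are not given in the sources used here, so p-values cannot be read as a spread between animals. They rest on the spread between these pairs, moderated by the spread pooled over all probe sets.

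LXRs bind oxidised forms of cholesterol and pair with retinoid X receptors on DNA. In mouse and human macrophages they are known to drive the gene cluster of APOE, APOC1, APOC4 and APOC2 through shared distal enhancers, and in mouse liver they are known to drive LPL and PLTP. CETP is a known LXR target in mice that carry the human gene, and APOD in mouse adipose tissue. Luteal cells take up lipoprotein cholesterol as raw material for progesterone, which gives these proteins a place in the gland. In the order of the macaque genes in the RefSeq table of the T2T-MMU8v2.0 assembly, APOE is followed by APOC1, an unnamed locus, APOC4 and APOC2. The labels name no genome build for the array, so positions are not given.

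Values are log2 levels of a probe set on an array. A difference of 1 is a 2-fold change, and levels of different probe sets are not comparable with each other. A reference for dim signal stood at 4.63, below which 95% of the means of 42 Bacillus control probe sets lay. The arrays had median levels of 5.54 to 5.71, and 68.8% to 74.1% of probe sets lay above that reference on an array. All 7 measured luteal markers of the 10 listed lay above it on every array, among them STAR, which moves cholesterol into mitochondria (difference -0.09 ± 0.08). RNA quality, read as the mean 3' minus 5' difference of the actin, GAPDH and EF1a controls, was 1.00, 0.69 and 1.30 with T0901317 in replicates 1, 2 and 3, against 0.83, 0.76 and 1.89 with DMSO. Replicate 3 thus had the largest value in both groups.

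APOC4 and APOE rose with T0901317, and no other member passed the test. Of the 11 probe sets, 3 rose and 0 fell at an adjusted p under 0.05, all 3 of them in these 2 genes. Of all probe sets tested 0.0853% passed, 0.0606% higher and 0.0246% lower. At an unadjusted p under 0.05 there were 4 of the 11, beside 3.72% of all, and these were the 3 of APOE and that of APOC4. The probe sets of LPL, PLTP, APOD and CETP had log2 differences between -0.05 and 0.11. In their rank of rise among the 52766 probe sets, APOC4 stood at 23 and the APOE probe sets at 34, 50 and 53. APOD stood at 11455, CETP at 11233 and PLTP at 23863. The 4 LPL probe sets lay between 23496 and 36929.

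**Figure D1:**
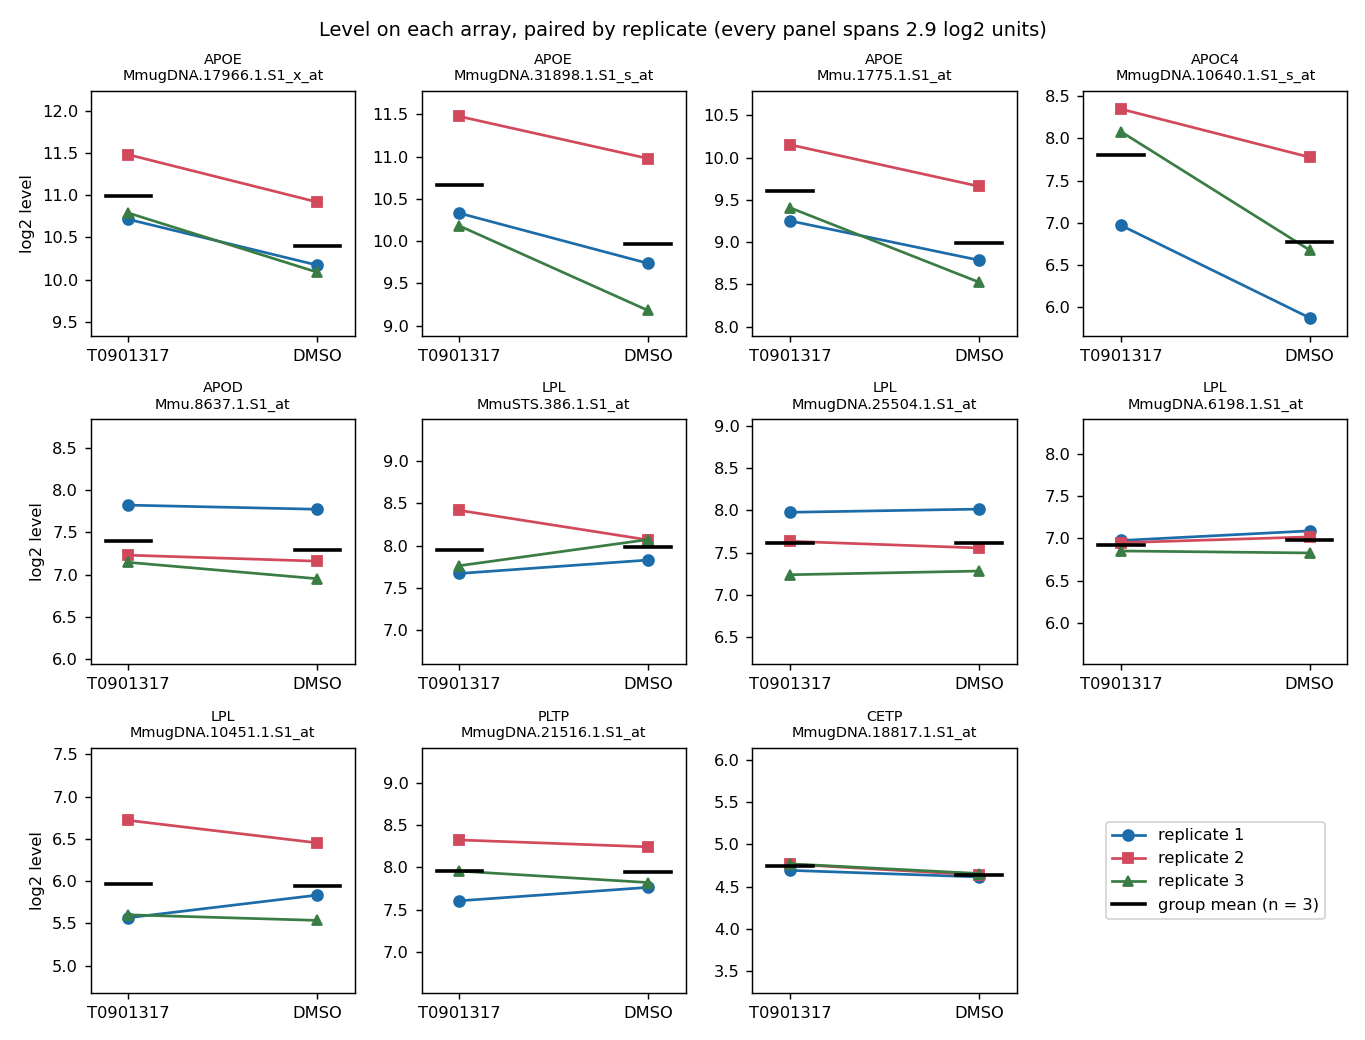
Log2 level (vertical axis) of each of the 11 probe sets on the 6 arrays, with T0901317 left and DMSO right; lines join the arrays of a replicate and black bars are group means (n = 3). Every line of APOE and APOC4 is higher at T0901317, while the lines of LPL cross or run flat and replicates lie further apart than treatments for APOD.

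APOE, the ligand by which lipoprotein remnants bind receptors of the LDL receptor family, was higher with T0901317 in 3 of 3 pairs on each of its 3 probe sets. On MmugDNA.17966.1.S1_x_at the levels were 10.71, 11.48 and 10.79 with T0901317 in replicates 1, 2 and 3, against 10.17, 10.92 and 10.09 with DMSO. Replicate 2 was the highest in both groups, and the groups overlapped because its vehicle array lay above the treated arrays of replicates 1 and 3. The paired differences were 0.54, 0.56 and 0.70. They gave a rise of 0.60 ± 0.07 in log2 units (SE from limma, 3 pairs; 1.52-fold, 95% interval 1.36 to 1.69; limma adjusted p = 0.0087).

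A second APOE probe set, MmugDNA.31898.1.S1_s_at, had levels of 10.33, 11.48 and 10.18 with T0901317 and of 9.74, 10.98 and 9.18 with DMSO. Here too the groups overlapped through replicate 2. The rise was 0.70 ± 0.10 (1.62-fold, 95% interval 1.40 to 1.88; limma adjusted p = 0.023), with pair 3 at 1.00 and the other pairs at 0.59 and 0.50. On the probe set with the plain suffix at, the levels were 9.25, 10.15 and 9.41 with T0901317 and 8.79, 9.66 and 8.53 with DMSO. Its difference of 0.61 ± 0.10 (95% interval 0.39 to 0.83) stood just outside the threshold (limma adjusted p = 0.059).

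The name of a probe set tells how its probes match. The suffixes x and s mark probes that can match several transcripts, which need not come from 1 gene, and the 2 APOE probe sets that passed carry them, as does that of APOC4. The APOE probe set with the plain suffix is the 1 that did not pass. When all probe sets with such suffixes were left out before the fit, it passed (0.61, limma adjusted p = 0.037). The 3 APOE probe sets followed each other over the 6 arrays with Pearson r of 0.96, 0.98 and 0.99, as a description of arrays that share 3 pairs.

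APOC4, a small apolipoprotein of very low density lipoproteins, had the largest difference of the members. Its levels were 6.97, 8.35 and 8.08 with T0901317, against 5.87, 7.78 and 6.68 with DMSO. Replicate 2 was again highest in both groups, and its vehicle array lay above the treated array of replicate 1. The paired differences were 1.10, 0.57 and 1.40, with the smallest in replicate 2, whose vehicle level was the highest. The rise was 1.02 ± 0.14 (2.03-fold, 95% interval 1.63 to 2.53; limma adjusted p = 0.026).

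The calls of APOE and APOC4 depend on the pairing and on replicate 1. Without the replicate block the adjusted p was 1.00 for each, and without replicate 1 the differences were 0.63 and 0.75 on the 2 APOE probe sets that passed and 0.99 for APOC4, with limma adjusted p of 0.057, 0.078 and 0.11. Between vehicle arrays the levels differed by 0.83 on the first APOE probe set, by 1.13 on that with the plain suffix and by 1.90 for APOC4, more than the mean difference between treatments. Without a variance trend the adjusted p was 0.38 and 0.43 for APOE and 0.18 for APOC4, and after quantile normalization it was 0.067 for the second APOE probe set and 0.15 for APOC4.

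Pair 3 had the largest difference on all 4 probe sets. It was also the pair with the widest gap in RNA quality, 1.30 with T0901317 against 1.89 with DMSO. With RNA quality as a covariate the differences were 0.56, 0.60 and 0.51 for APOE and 0.92 for APOC4. All 4 passed (limma adjusted p = 8.8e-05, 0.00017, 0.0018 and 0.00066). With replicate, treatment and covariate all fitted on 6 arrays, little spread is left within a probe set. These p-values thus lean mostly on the spread pooled over all probe sets. The covariate fit called 206 of all probe sets, against 45 in the main fit, so the smaller p-values were not particular to these genes. Without pair 3 the differences were 0.55, 0.55 and 0.48 for APOE and 0.83 for APOC4, again all above 0.

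**Figure D2:**
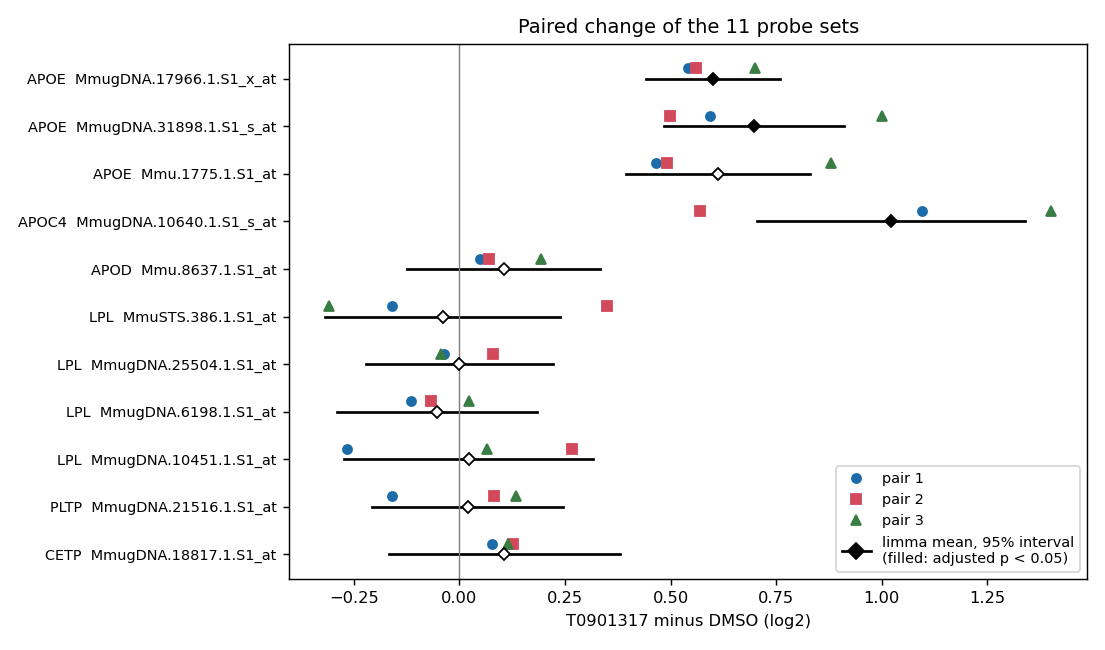
Paired log2 difference, T0901317 minus DMSO (horizontal axis), of the 11 probe sets (vertical axis). Coloured symbols are the 3 pairs, and diamonds with bars are limma's mean and 95% interval, filled where the adjusted p was under 0.05. All symbols of APOE and APOC4 lie at or above 0.46, and the intervals of the other 7 probe sets include 0.

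LPL, the enzyme that frees fatty acids from the triglyceride of circulating particles at the vessel wall, did not pass on any of its 4 probe sets. On MmuSTS.386.1.S1_at the levels were 7.67, 8.42 and 7.76 with T0901317 and 7.83, 8.07 and 8.07 with DMSO. The pairs went opposite ways, at -0.16, 0.35 and -0.31. The mean difference was -0.04 ± 0.13 (95% interval -0.32 to 0.24; limma adjusted p = 1.00).

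On MmugDNA.25504.1.S1_at LPL had 7.98, 7.64 and 7.24 with T0901317 and 8.02, 7.56 and 7.28 with DMSO. No pair differed by more than 0.08 on that probe set, while the vehicle arrays differed by 0.73. MmugDNA.6198.1.S1_at gave 6.97, 6.95 and 6.85 with T0901317 and 7.09, 7.02 and 6.83 with DMSO. MmugDNA.10451.1.S1_at gave 5.57, 6.72 and 5.60 with T0901317 and 5.83, 6.45 and 5.54 with DMSO. The log2 differences of these 3 were -0.00080 ± 0.10, -0.05 ± 0.11 and 0.02 ± 0.13 (limma adjusted p = 1.00 for each). The highest upper bound of the 4 intervals was 1.25-fold and the lowest lower bound 0.80-fold.

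The LPL probe sets did not rank the arrays alike. Replicate 2 was highest in both groups on MmugDNA.10451.1.S1_at, while replicate 1 was highest in both groups on MmugDNA.25504.1.S1_at and MmugDNA.6198.1.S1_at. Pearson r over the 6 arrays ran from -0.26 to 0.84 among the 6 pairs of LPL probe sets, where those of APOE had 0.96 to 0.99. The arrays share 3 pairs, and the identity of the transcripts read by each LPL probe set was not tested.

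PLTP, which moves phospholipid between lipoproteins and remodels high density particles, had levels of 7.60, 8.32 and 7.95 with T0901317, against 7.76, 8.24 and 7.82 with DMSO. The groups overlapped throughout, and pair 1 lay below 0 with the other pairs above it (-0.16, 0.08 and 0.13). The difference was 0.02 ± 0.10 (95% interval -0.21 to 0.25, or 0.87-fold to 1.19-fold; limma adjusted p = 1.00).

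CETP, which exchanges cholesteryl ester for triglyceride between particles, was read at the edge of dim signal. Its levels were 4.69, 4.76 and 4.77 with T0901317, against 4.61, 4.64 and 4.65 with DMSO. All 3 treated arrays lay above all vehicle arrays, and CETP was the 1 member probe set whose groups did not overlap, beside 1.38% of all probe sets with the treated arrays higher and 1.07% with them lower. The pairs differed by 0.08, 0.13 and 0.11. With limma's pooled spread the difference was 0.11 ± 0.12 (95% interval -0.17 to 0.38, or 0.89-fold to 1.30-fold; limma adjusted p = 1.00), and at a level so near the reference for dim signal of 4.63 a change of the transcript may not be detectable.

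APOD is a lipocalin that binds small lipids and rides on high density lipoproteins, unrelated in structure to APOE and APOC4. It had 7.82, 7.23 and 7.14 with T0901317, against 7.77, 7.16 and 6.95 with DMSO. Every pair lay above 0, at 0.05, 0.07 and 0.19, and replicate 1 was the highest in both groups. The difference was 0.10 ± 0.10 (95% interval -0.12 to 0.33, or 0.92-fold to 1.26-fold; limma adjusted p = 1.00). In all, 6 of the 11 probe sets were higher in all 3 pairs, the 3 of APOE and those of APOC4, APOD and CETP, beside 12% of all probe sets. The upper bounds of the intervals of the 7 probe sets of APOD, LPL, PLTP and CETP were 1.14-fold to 1.30-fold, the highest being that of CETP. The differences between genes were not tested.

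**Figure D3:**
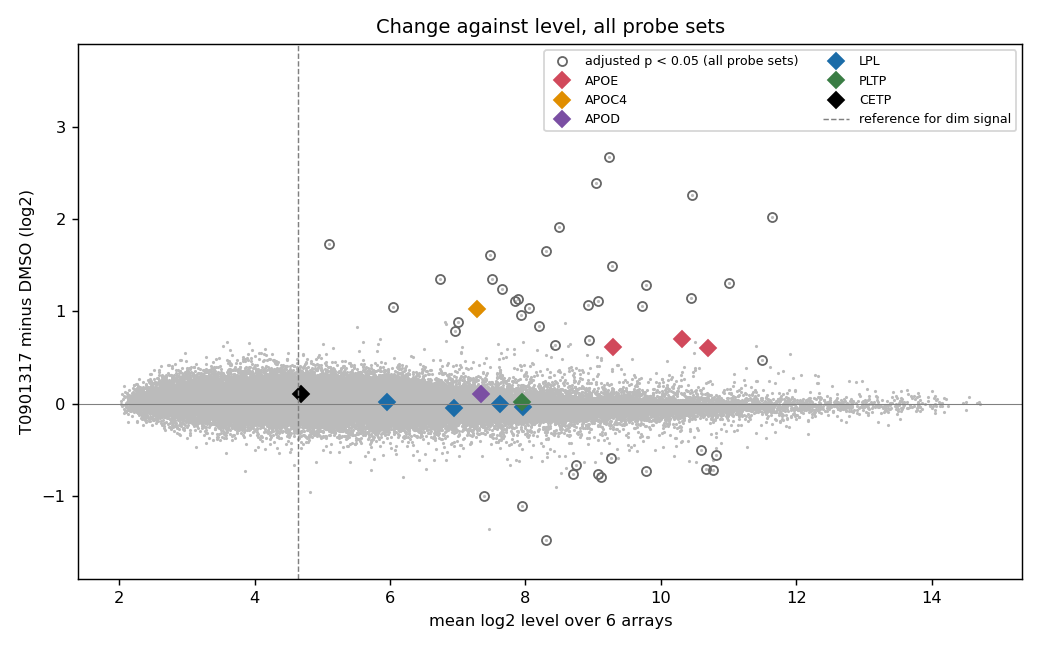
Log2 difference, T0901317 minus DMSO (vertical axis), against mean log2 level over the 6 arrays (horizontal axis) for the 52766 probe sets. Open circles passed at an adjusted p under 0.05 and diamonds are the members. APOC4 and the 3 APOE probe sets stand clear of the grey cloud, at 0.60 to 1.02, while LPL, PLTP, APOD and CETP lie inside it, CETP on the line for dim signal.

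Markers of other cell types were read beside APOE and APOC4, since in whole cultures fewer cells of a type and less RNA per cell cannot be told apart. Of 9 measured endothelial markers of 10 listed, 8 lay above 0, beside 41.4% of all named genes, and 0 passed, with a median difference of 0.21 (1 had an unadjusted p under 0.05). The summed level of the 9 was 10.26, 10.79 and 10.37 on the log2 scale with T0901317 in replicates 1, 2 and 3, against 10.11, 10.63 and 10.00 with DMSO. The sum was thus higher in every treated array than in its vehicle partner, and highest in replicate 2, as APOE was. KDR, a defining endothelial receptor, was the 1 marker with a mean below the reference for dim signal, and the other 8 lay above it on every array. The differences of the 9 ran from -0.02, that of KDR, to 0.39. The part of endothelial cells in the differences of APOE and APOC4 was not tested.

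Macrophages are a known source of APOE. All 10 measured macrophage markers of 12 listed lay above the reference on every array, with 4 above 0, 6 below 0 and 0 past the threshold (2 at an unadjusted p under 0.05; median -0.02). Their summed level was 11.70, 12.98 and 12.99 with T0901317, against 11.84, 13.09 and 12.99 with DMSO. It was lowest in replicate 1 of both groups, as APOC4 was. APOE was lowest in replicate 1 on 2 of its 3 probe sets with T0901317, and in replicate 3 on all 3 with DMSO. The sum was lower with T0901317 in pairs 1 and 2, and nearly equal in pair 3. The median of the 10 markers was 7.07, 8.22 and 8.66 with T0901317, against 7.11, 8.28 and 8.43 with DMSO, so that in pair 3 it was higher with T0901317. In that pair C1QC, a subunit of complement C1q, differed by 0.41 and C1QA, another subunit, by 0.32. TYROBP, an immune signalling adaptor, differed there by -0.27, and CSF1R, another of the markers, by -0.45. TYROBP and CSF1R were lower in every pair. The part of macrophages in the differences of APOE and APOC4 was not tested. Fibroblast markers had a median of -0.07 over 8 genes, 7 of them below 0. Pericyte and smooth muscle markers had a median of -0.24 over 4 measured of 8 listed. All 4 lay below 0, and 2 had an unadjusted p under 0.05. Luteal markers had a median of -0.12 over 7, with 5 below 0. Adipocyte markers had -0.04 over 4, and hepatocyte markers 0.06 over 5, of which SERPINA1, the elastase inhibitor, had 0.27 ± 0.09. None of these markers passed over all probe sets, beside 0.113% of all named genes that rose and 0.0637% that fell.

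**Figure D4:**
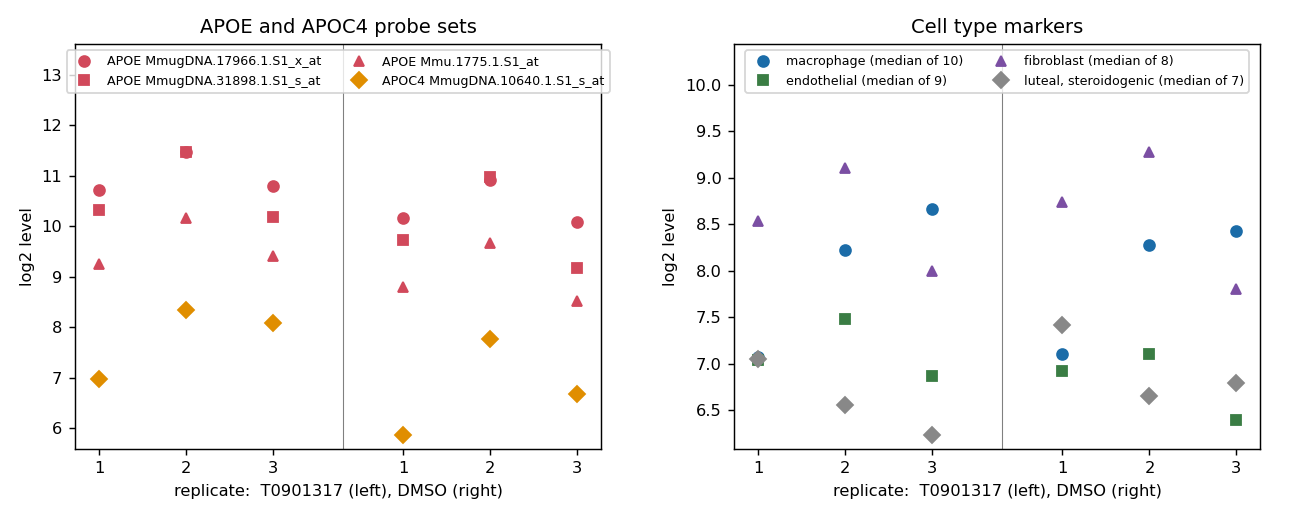
Log2 levels (vertical axes) on the 6 arrays, replicates 1 to 3 with T0901317 left and DMSO right; 1 point is 1 array. The left panel gives the APOE and APOC4 probe sets and the right panel the median of each marker list. APOE and the endothelial median are highest in replicate 2 of both groups, while the macrophage median is lowest in replicate 1 of both groups.

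The genes whose levels ran most like each member over the 6 arrays were taken from all named genes above the reference for dim signal. For APOE they were CDH5, the endothelial cadherin (Pearson r = 0.99), GALNT17 (0.99) and CALY (0.98), and 39 genes had r above 0.9. For APOC4 they were BLOC1S3 (0.98), the transcription factor gene MECOM (0.97) and TEDC2 (0.97). For LPL, on MmuSTS.386.1.S1_at, they were PIK3CG, KIAA0753 and RNF43 (0.98 to 0.99). For PLTP they were RAB29, CARD9 and ACOT9 (0.99 to 1.00), with 471 genes above 0.9. For APOD they were MTMR1, POLR3B and PTPRF (0.99 to 1.00), with 510 genes above 0.9. For CETP they were NPFF, VPS37C and POU2F1 (0.96 to 0.99). These values describe arrays that share 3 pairs and their normalization, and differences between replicates enter them beside treatment, to an extent that varies by member. For APOD the vehicle arrays ranged over 0.82, beside a treatment difference of 0.10. For CETP they ranged over 0.04, beside 0.11. None of the 18 genes named as most like a member passed the test of treatment, beside 0.113% of all named genes that rose and 0.0637% that fell.

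The next genes on the chromosome were read for APOE and APOC4, a choice made after the members' values were seen. TOMM40, APOC1 and APOC2 have no probe set under their names and were not analysed here. Among the 6 coding genes on each side, 7 genes besides the members were measured, on 13 probe sets. None passed (0 rose and 0 fell in limma), beside 0.0853% of all probe sets, so 0 of 13 does not set these neighbours apart. Their log2 differences ran from -0.09 to 0.16. NECTIN2, an adhesion molecule gene before TOMM40, had 0.07 and -0.09 on its probe sets, and CLPTM1, next after APOC2, had -0.0085 to 0.13 on 5. RELB, a subunit of NF-kB, had 0.09 ± 0.09.

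Other genes of the lipoprotein system were read by 3 lists, 1 probe set a gene. Of 79 listed genes 54 were measured and 0 passed in limma over all probe sets (5 had an unadjusted p under 0.05), beside 0.113% of all named genes that rose and 0.0637% that fell. The median over all named genes was -0.02, and 41.4% of them lay above 0. For other apolipoproteins and proteins that ride on particles, 19 genes were measured, 10 above 0 and 9 below, with a median of 0.0073. PON2, an intracellular paraoxonase, had 11.23, 11.05 and 10.78 with T0901317, against 11.40, 11.23 and 11.13 with DMSO. It was lower in every pair, with a difference of -0.23 ± 0.07 (limma adjusted p = 1.00). PON1, a paraoxonase of high density lipoproteins, had 0.19 ± 0.14 at levels below the reference for dim signal. APOA5, an activator of triglyceride clearance, had 0.15 ± 0.13. Leaving out 1 replicate gave 0.011 to 0.31 for PON1 and 0.036 to 0.29 for APOA5. APOL2 had -0.11 ± 0.10, and APOC3, an inhibitor of LPL, 0.10 ± 0.10. APOA1, the main protein of high density lipoproteins, had -0.10 ± 0.11, and APOB, that of low density lipoproteins, -0.04 ± 0.12.

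For lipases, their regulators and assembly factors, 15 genes were measured, 5 above 0 and 10 below, with a median of -0.04. ANGPTL4, a secreted inhibitor of LPL, had 9.28, 10.21 and 8.20 with T0901317, against 9.64, 10.58 and 8.37 with DMSO. All 3 pairs were lower, and the difference was -0.30 ± 0.09 (limma adjusted p = 0.90), while its second probe set had -0.04 ± 0.10. The first probe set passed without replicate 3 (-0.36, limma adjusted p = 0.015), in a fit that called 328 of all probe sets, against 45 in the main fit. LIPA, the lysosomal acid lipase, had -0.23 ± 0.07 with all 3 pairs below 0, and LMF2, a relative of the lipase maturation factor LMF1, had 0.12 ± 0.09. P4HB, a subunit of the triglyceride transfer protein complex, had -0.02 ± 0.07. GPIHBP1, which anchors LPL to the capillary wall, had -0.04 ± 0.13, and LMF1, needed for LPL to fold, -0.05 ± 0.10.

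For receptors, docking sites and exporters, 20 genes were measured, 12 above 0 and 8 below, with a median of 0.04. CD36, a scavenger receptor for modified lipoproteins and fatty acids, had 4.42, 6.83 and 6.12 with T0901317, against 5.31, 7.90 and 6.53 with DMSO. Each pair was lower, and the difference of -0.79 ± 0.14 did not pass (limma adjusted p = 0.10). Without replicate 3 CD36 passed (-0.98, limma adjusted p = 5.5e-07). That fit called 328 of all probe sets, against 45 in the main fit, so its small p-values were not particular to CD36. ABCA1, which loads lipid onto apolipoproteins, was higher in every pair (0.34, 0.33 and 0.75). Its difference of 0.47 ± 0.13 did not pass (limma adjusted p = 0.88), on a probe set whose gene number is not in the current gene table. LRP2, a large receptor of the LDL receptor family, had 0.26 ± 0.12 at levels below the reference for dim signal. The proteoglycan cores SDC4 and SDC1 had 0.05 ± 0.08 and -0.03 ± 0.09, BSG had -0.05 ± 0.09, and VLDLR, a receptor for APOE, 0.02 ± 0.11.

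**Figure D5:**
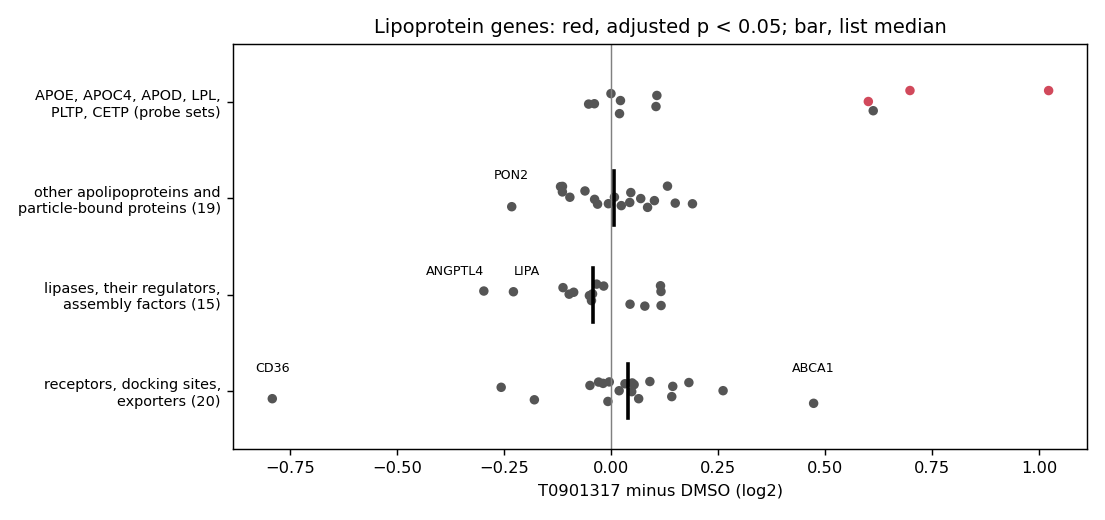
Log2 differences, T0901317 minus DMSO (horizontal axis), of the 11 member probe sets and of the measured genes of 3 lists of the lipoprotein system (vertical axis, number measured in brackets). Red points passed at an adjusted p under 0.05 and black bars are list medians. The 3 red points are all among the members, and the list medians lie between -0.04 and 0.04.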

How the data were processed

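Levels were measured on 6 arrays, 3 per group. Per the submitters' processing notes, the deposited log2 values come from RMA (background correction, normalization between arrays, 1 summary a probe set), with no version named there. The deposited values ran from 1.81 to 14.7. The 99 control probe sets were left out, and gene names came from the platform annotation, checked by gene number against RefSeq (T2T-MMU8v2.0). Of 24956 probe sets with 1 symbol, 24616 had a gene number found there, and 0 symbols changed. Of the 52766 probe sets tested, 361 had several symbols and 27449 none. T0901317 minus DMSO was fitted with limma 3.58.1 (R 4.3.3) with replicate numbers blocked and a variance trend in eBayes. P-values were two-sided and Benjamini-Hochberg adjusted over all 52766. The fit was tested on simulated data with 3 noise models in turn. The first recovered too few of the planted changes, the second gave too many false calls, and the third, drawn from the fitted variance prior, was kept; small changes were mostly missed there and false calls lay slightly above the nominal share. The pairing comes from the design text; same-numbered arrays deviated together from their group means (correlations of 0.66, 0.81 and 0.83; at most 0.20 between other numbers). With 3 pairs the smallest p of an exact sign-flip test is 0.25, so the calls lean on the spread that limma pools over probe sets. No array date was used, so no batch was tested, and the number of arrays limits precision. In lists a gene stands for its probe set of highest mean.

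The members and lists were chosen with earlier results of these data known. Named were all member probe sets; from each list the genes past the threshold, the 3 of largest difference and the 3 of highest level; and the 3 genes most like each member by Pearson r. The endothelial KDR, SERPINA1, STAR and, in the lists, APOA1, APOB, GPIHBP1, LMF1 and VLDLR were named for their roles after values were seen. The macrophage markers C1QC, C1QA, TYROBP and CSF1R were likewise named after values were seen. There were 12 alternatives: no block, leaving out each replicate, 3 scalings, a filter on dim probe sets, 2 variance models, RNA quality as a covariate, and leaving out probe sets with x, s or a suffixes. No sequence was used.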

Additional observations from a re-analysis of the deposited data

How the results depend on the processing

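APOE and APOC4 were above 0 under every alternative in which their probe sets were measured, but their calls were not kept under all. Of the member probe sets 3 passed, all higher. Without the replicate block limma called 0 of them (also 0 by unadjusted p), and without a variance trend 0 passed (4 unadjusted). After quantile normalization 1 passed, after cyclic loess 1, and with x, s and a probe sets left out 1 of 8. Leaving out a replicate gave 0 to 4, with 0 without replicate 1 (4 unadjusted). Over all probe sets 45 passed. That count was 0 without the block (143 unadjusted), 27 after quantile normalization, 27 after cyclic loess, 11 without a variance trend and 206 with the RNA quality covariate. It was 35, 72 and 328 without replicate 1, 2 and 3. In the lists 0 to 2 genes passed when a replicate was left out, 1 (CD36) after median centring and 1 (CD36) with the covariate. Small differences turned sign. LPL on MmuSTS.386.1.S1_at had 0.022 with the covariate and -0.23 to 0.095 without a replicate. On MmugDNA.25504.1.S1_at it had 0.036 (quantile), 0.028 (loess), 0.0064 (covariate) and -0.041 to 0.021 without a replicate. On MmugDNA.10451.1.S1_at it had -0.0051 (quantile), -0.0014 (median centring), -0.031 (covariate) and -0.10 to 0.17 without a replicate. PLTP had -0.0037 (median centring), -0.038 (covariate) and -0.039 to 0.11 without a replicate. P4HB had 0.0058 (quantile), 0.0071 (loess) and -0.088 to 0.034 without a replicate. SDC4 had -0.020 (covariate) and -0.053 to 0.11 without a replicate, SDC1 0.0045 (quantile) and 0.0087 (loess), and APOC3 -0.00033 to 0.17 without a replicate. Leaving out a replicate also moved, without a change of sign, APOD (0.060 to 0.13), LPL on MmugDNA.6198.1.S1_at (-0.091 to -0.022), PON1 (0.011 to 0.31), APOA5 (0.036 to 0.29), APOL2 (-0.20 to -0.062), LIPA (-0.27 to -0.15), LMF2 (0.067 to 0.17), LRP2 (0.17 to 0.32) and SDC1 (-0.055 to -0.011). The cause of these changes was not tested.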

Other observations

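Genes next to PLTP and CETP on their chromosomes, read after the members' values were seen, did not pass either. Around PLTP, 15 probe sets of 10 neighbours had log2 differences of -0.12 to 0.19, with CTSA, the lysosomal protective protein, at 0.15 ± 0.07. Around CETP, 20 probe sets of 10 neighbours had -0.18 to 0.20, with NLRC5, a regulator of class I antigen presentation genes, at -0.18 ± 0.11. In both groups of neighbours 0 passed in limma, beside 0.0853% of all probe sets, so these counts do not set the neighbours apart.

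The 37 further probe sets of the listed lipoprotein genes gave 0 calls in limma as well, beside 0.0853% of all probe sets. OLR1, a receptor for oxidised low density lipoprotein, had 0.35 ± 0.13 on MmugDNA.24747.1.S1_at and 0.06 ± 0.13 on MmugDNA.22023.1.S1_at. PON2 had -0.19 ± 0.08 and -0.16 ± 0.15 on its other 2 probe sets, on the same side as -0.23 on the first.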
